A study of Mus musculus with 12 samples.

Results

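The transcripts followed here are 10 cytokine and chemokine genes that myeloid cells use to signal: *Ccl3*, *Ccl4*, *Ccl6*, *Ccl9*, *Cxcl2*, *Il1b*, *Il1rn*, *Tnf*, *Il6* and *Osm*. They were chosen by name, with earlier results of these data known, and 9 of the 10 have a row among the 15651 genes of the expression table. *Cxcl2* has no row and was not analysed here. RNA was measured in leukemic splenocytes enriched for c-Kit, the receptor for stem cell factor, from 3 moribund D/F mice (Dnmt3afl/fl,Flt3ITD/ITD,Mx1Cre) and 3 moribund T/F mice (Tet2fl/fl,Flt3ITD/ITD,Mx1Cre). The cells of each mouse were divided between the solvent DMSO and CCS1477, an inhibitor of the bromodomains of the histone acetyltransferases p300 and CBP, for 6 hours, which gave 12 libraries in 4 groups of 3. All 4 groups carry the *Flt3* internal tandem duplication on both alleles and a Cre driven by the interferon-responsive Mx1 promoter, which is not restricted to leukemic cells. No agent was given to the mice to induce Cre, so that deletion of the floxed alleles rested on its leaky activity. The D/F cells received 4 µM and the T/F cells 2 µM, and dose and genotype cannot be told apart in any difference between the responses. The medium of every group held serum, SCF at 60 ng/ml, IL3 at 20 ng/ml and IL6 protein at 20 ng/ml, so the *Il6* values below are those of the cells' own transcript in the presence of added IL6.

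Chemokines are small secreted proteins that draw leukocytes along a gradient through G protein-coupled receptors. CCL3 and the mouse chemokines CCL6 and CCL9 act through the receptor CCR1. IL-1β and TNF are the main alarm cytokines of monocytes and macrophages, and the IL-1 receptor antagonist encoded by *Il1rn* occupies the receptor of IL-1β without signaling. IL6 and oncostatin M (*Osm*) belong to the cytokine family that signals through the shared subunit gp130, encoded by *Il6st*. Many of these genes are kept low in resting cells and are rapidly transcribed after stimulation from promoters and enhancers that bind NF-κB, AP-1 and C/EBP factors.

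Levels are in TPM, an abundance scaled to transcript length and to the sum of all transcripts of a library. Differences are CCS1477 minus DMSO on the log2(TPM + 1) scale, a scale that understates the change of low genes. A gene was called when it changed above 2-fold with an adjusted p under 0.05 in limma, over all genes tested. In bulk RNA, fewer cells of a type and less RNA per cell cannot be told apart. TPM keep no read numbers, so the depth behind each value is unknown, and the precision is the spread between 3 mice. The libraries of D/F replicate 2 stood apart from their groups. In its DMSO library 835 genes were more than 2-fold above both groupmates, and in its CCS1477 library 461, against 11 to 71 in the other 10 libraries. Among genes chosen after their values were seen, that DMSO library had the highest *Kit* of the 12 libraries (148.84 TPM) and the highest *Cd34* (447 TPM), and the lowest *Elane* of the DMSO libraries (454 TPM). Its values are included below unless stated. *Ptprc*, the gene of the leukocyte antigen CD45, was listed at only 0.826 to 3.11 TPM in the 12 libraries. Of the targeted genes, *Dnmt3a* overlapped between the genotypes, at 29.3 to 55.7 TPM in the 6 D/F libraries and 39.9 to 57.2 TPM in the 6 T/F libraries. *Tet2* was 38.3 to 43.4 TPM in D/F and 30.0 to 35.8 TPM in T/F under DMSO. A gene-level TPM does not isolate the floxed exons.

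The promoters of 7 of the 9 genes were matched in a RefSeq table of GRCm38.p6, each as 250 bases before and 50 bases after the annotated start. The promoters of *Ccl9*, *Ccl6* and *Ccl3* are printed because of these neighbours in a chromosome 11 cluster the first 2 were called lower and *Ccl3* was not, and those of *Il1b* and *Il6* because their levels over the 12 libraries were the most alike of any pair of the 9. They are 5′ to 3′ on the strand of the gene, and capitals mark matches to 5 motifs searched on both strands.
*Ccl9* (minus strand, chr11:83578587-83578886): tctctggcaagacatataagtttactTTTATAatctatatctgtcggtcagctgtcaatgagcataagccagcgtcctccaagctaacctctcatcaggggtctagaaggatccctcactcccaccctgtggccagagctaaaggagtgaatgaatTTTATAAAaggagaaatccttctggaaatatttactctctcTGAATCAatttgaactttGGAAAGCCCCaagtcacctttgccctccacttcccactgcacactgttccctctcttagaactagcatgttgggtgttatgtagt
*Ccl6* (minus strand, chr11:83593038-83593337): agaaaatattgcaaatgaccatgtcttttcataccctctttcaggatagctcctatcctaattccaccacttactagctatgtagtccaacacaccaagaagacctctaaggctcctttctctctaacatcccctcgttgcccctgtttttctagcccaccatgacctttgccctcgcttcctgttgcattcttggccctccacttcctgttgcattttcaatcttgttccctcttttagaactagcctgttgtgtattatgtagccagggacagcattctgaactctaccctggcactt
*Ccl3* (minus strand, chr11:83649329-83649628): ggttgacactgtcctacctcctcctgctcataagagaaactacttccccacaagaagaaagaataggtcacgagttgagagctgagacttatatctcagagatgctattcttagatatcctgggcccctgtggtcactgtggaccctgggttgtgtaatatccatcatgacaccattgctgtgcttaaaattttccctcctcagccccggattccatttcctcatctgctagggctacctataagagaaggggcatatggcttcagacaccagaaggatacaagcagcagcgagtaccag
*Il1b* (minus strand, chr2:129371090-129371389): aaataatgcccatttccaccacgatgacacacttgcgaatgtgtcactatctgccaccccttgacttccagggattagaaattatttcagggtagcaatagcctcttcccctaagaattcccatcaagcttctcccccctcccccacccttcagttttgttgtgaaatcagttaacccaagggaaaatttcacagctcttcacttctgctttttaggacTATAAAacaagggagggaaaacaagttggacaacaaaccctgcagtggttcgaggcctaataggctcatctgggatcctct
*Il6* (plus strand, chr5:30012864-30013163): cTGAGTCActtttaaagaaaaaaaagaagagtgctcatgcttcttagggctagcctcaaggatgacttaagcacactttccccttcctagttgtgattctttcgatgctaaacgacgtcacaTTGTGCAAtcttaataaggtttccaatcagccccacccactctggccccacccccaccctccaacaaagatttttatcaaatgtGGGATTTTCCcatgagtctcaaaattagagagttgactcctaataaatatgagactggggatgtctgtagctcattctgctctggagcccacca

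The κB motif was searched as GGG and TTCC set 3 bases apart and is held by 5.56% of 32851 promoters of this length, AP-1 as TGANTCA by 7.81%, C/EBP as TTGCNNAA by 10.8%, PU.1 as GAGGAAGT by 3.20% and the TATA box as TATAAA by 13.6%. The *Il6* window holds a κB match 44 to 35 bases before the start, a C/EBP match and an AP-1 match. The *Ccl9* window holds a κB match 35 to 26 bases before the start, an AP-1 match and 3 TATA matches. These TATA matches lie 224 to 219, 94 to 89 and 92 to 87 bases before the start, and the last 2 overlap on opposite strands. The *Il1b* window holds a TATA match 31 to 26 bases before the start. The *Tnf* window, not printed, holds a TATA match 29 to 24 bases before the start, and the 3 windows of *Il1rn* hold a κB match each, of which 2 are the same site in windows that overlap. The *Ccl6* and *Ccl3* windows hold none of the 5 motifs as written. The table has no window for *Ccl4* or *Osm*.

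With CCS1477, *Ccl6*, *Ccl9*, *Il1b*, *Tnf*, *Il1rn* and *Il6* fell when both genotypes were fitted together, each by more than 2-fold, and all 6 were also called with the mouse as a block and when each mouse was left out in turn. None of the 9 was called higher. Those are 6 of 9 genes, beside 5.70% of the 15583 genes tested that were called lower and 3.10% that were called higher in that fit. The median of the 9 log2 differences was −1.29, beside 0.07 over all genes tested. Lower TPM with CCS1477 in all 6 mice was seen for 7 of the 9, which are these 6 and *Ccl4*, beside 24.2% of all genes. The other 2, *Ccl3* and *Osm*, were lower in 4 of 6 mice. *Il6* reached the mean of 1 TPM needed for a test only under DMSO, with CCS1477 means of 0.0742 TPM (D/F) and 0.521 TPM (T/F). That filter favours a fall, so *Il6* adds little support to the counts in this paragraph. Within D/F cells 4 of 9 were called lower (4.61% of 15501 genes), and within T/F cells 4 of 9 (4.70% of 15256 genes). With the mouse as a block, which sets each treated library against the DMSO library of the same mouse, these counts were 5 of 9 (6.97% of genes) and 6 of 9 (5.18%), and over both genotypes 6 of 9 (5.90%). The CCS1477 libraries lay wholly below the DMSO libraries for 6 of 9 genes in D/F (16.7% of genes) and for 4 of 9 in T/F (22.6%). Without D/F replicate 1 or without D/F replicate 3 no gene of the table was called, with limma adjusted p of 0.0999 to 0.250 for the 4 genes, and without D/F replicate 2 there were 6 of 9 (5.53% of 15191 genes).

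**Figure D1:**
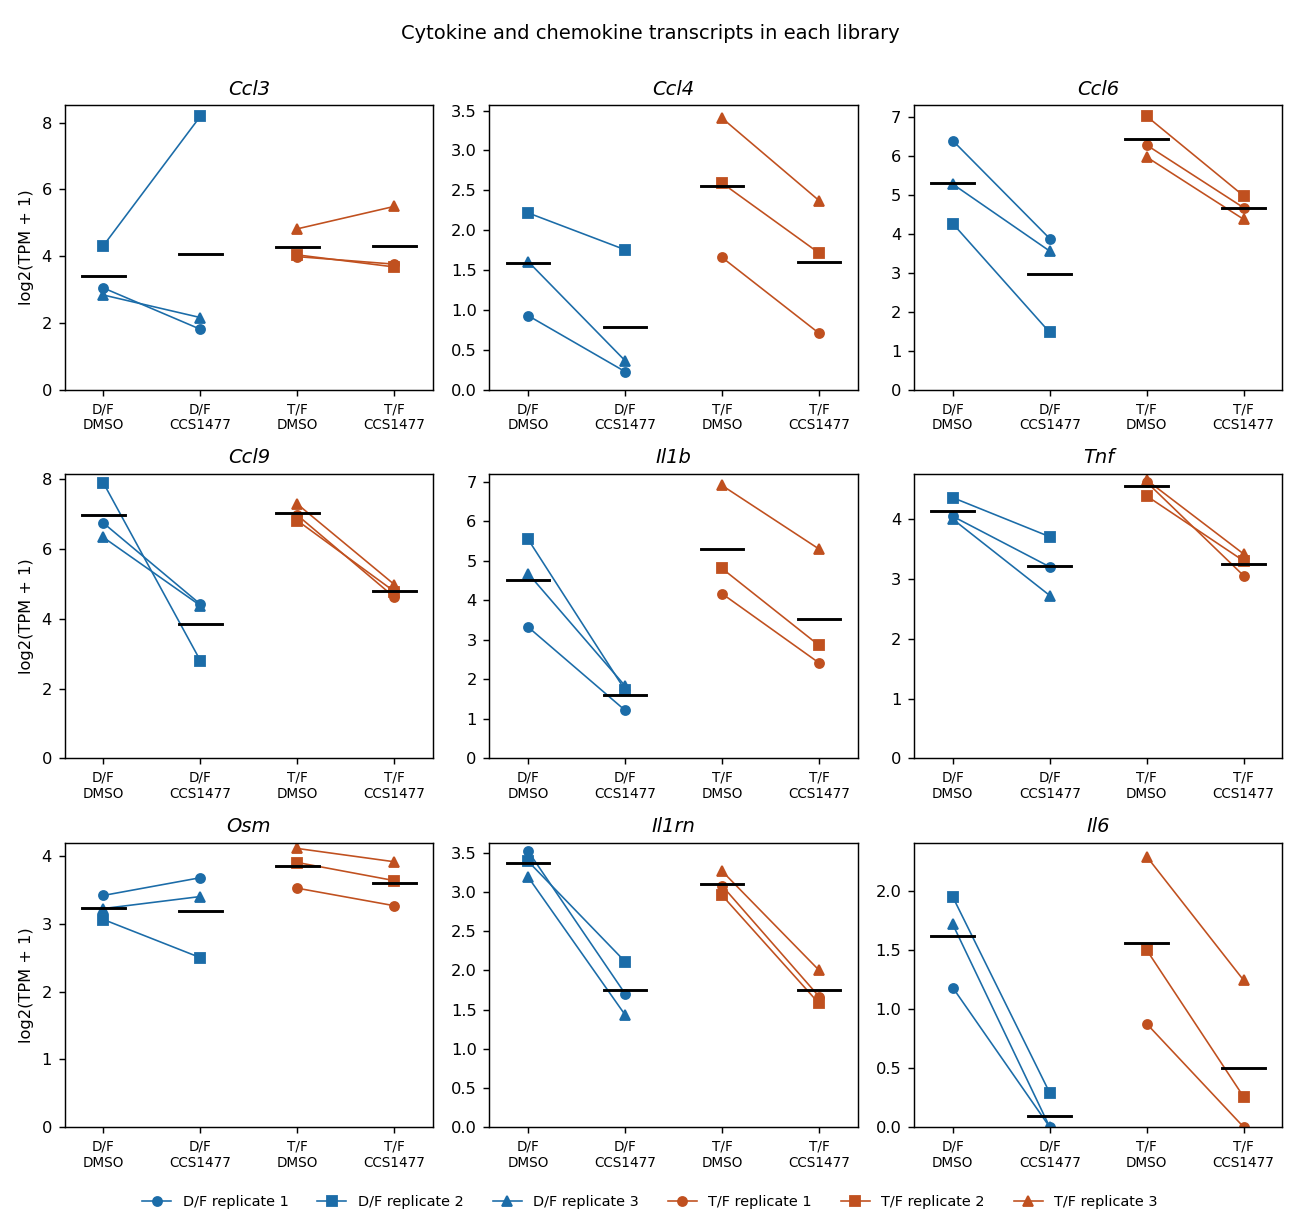
Levels of the 9 genes in each of the 12 libraries, as log2(TPM + 1) on the vertical axis and group on the horizontal axis. Lines join the DMSO and CCS1477 libraries of a mouse and black bars are the means of 3 libraries. *Il1rn* and *Ccl9* are lower with CCS1477 in every mouse, and *Ccl3* is at 291 TPM in the treated cells of D/F replicate 2.

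*Ccl9* had the highest mean of the 9 genes under DMSO in both genotypes. In D/F cells it was 106, 236 and 79.5 TPM under DMSO and 20.3, 5.94 and 19.8 TPM with CCS1477 in replicates 1 to 3. The 2 groups did not overlap, and the largest drop, from the highest DMSO value to the lowest treated value, was in D/F replicate 2, to 2.52% of its DMSO level. In T/F cells it was 124, 111 and 155 TPM under DMSO and 23.5, 26.5 and 30.6 TPM with CCS1477. These groups were as clearly apart, and 19.0 to 23.8% of the level was left in each mouse. The log2 difference was −3.12 ± 0.57 (SE, n = 3; limma adjusted p = 0.024) in D/F and −2.23 ± 0.15 (SE, n = 3; limma adjusted p = 0.000486) in T/F.

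*Ccl6* encodes a related chemokine and lies next to *Ccl9*. Its D/F values were 83.2, 18.2 and 37.8 TPM under DMSO and 13.7, 1.76 and 10.8 TPM with CCS1477. Every mouse was lower with CCS1477 and the ranges did not overlap, and the DMSO values differed widely between mice. The log2 difference of −2.34 ± 0.78 (SE, n = 3) had a limma adjusted p of 0.10, and 0.00708 with the mouse as a block. Without D/F replicate 2 the limma adjusted p was 0.0349. In T/F cells *Ccl6* fell from 76.7, 129 and 61.8 TPM to 24.5, 30.5 and 19.7 TPM, a log2 difference of −1.75 ± 0.30 (SE, n = 3; limma adjusted p = 0.00578), which was no longer called without T/F replicate 1 (limma adjusted p = 0.0549). Together *Ccl6* and *Ccl9* made up 50.9 to 77.7% of the summed TPM of the 9 genes in the DMSO libraries. The gene *E230016K23Rik*, a processed transcript on the opposite strand, spans *Ccl6*, and it was between 5.05 and 9.21 TPM in all 12 libraries. Reads of related chemokines and of overlapping genes may be divided between them in the estimate, and the strand setting of the quantification is not given in the sources used here.

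*Ccl3*, which encodes MIP-1α, gave no common direction. In D/F cells it was 7.24, 18.9 and 6.12 TPM under DMSO and 2.49, 291 and 3.46 TPM with CCS1477. Replicates 1 and 3 were lower with CCS1477 and replicate 2 was 15.4-fold higher, which put *Ccl3* at rank 4 of 13300 genes by change in that mouse and made it 89.9% of the summed TPM of the 9 genes there. The log2 difference was 0.65 ± 1.68 (SE, n = 3; limma adjusted p = 0.833). Without D/F replicate 2 it was −0.96, with a limma adjusted p of 0.0311. In T/F cells *Ccl3* was 14.8, 15.4 and 27.2 TPM under DMSO and 12.5, 11.7 and 43.9 TPM with CCS1477. Here replicates 1 and 2 were lower and replicate 3 was higher. The log2 difference was 0.03 with a 95% confidence interval of −1.30 to 1.35. Its sign turned when libraries were rescaled to the median gene (−0.05) or quantile normalized (−0.02).

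*Ccl4*, which encodes MIP-1β and is the nearest gene of the table to *Ccl3* on one side, 13229 bases away on the opposite strand, was low throughout. It was 0.901, 3.65 and 2.04 TPM under DMSO and 0.169, 2.37 and 0.285 TPM with CCS1477 in D/F. In T/F it was 2.15, 5.02 and 9.59 TPM and then 0.632, 2.28 and 4.17 TPM. All 6 mice were lower with CCS1477, while the ranges of the groups overlapped in both genotypes. Over both genotypes the log2 difference was −0.88 ± 0.40 (SE, n = 6 mice; limma adjusted p = 0.0920), and in the fit blocked by mouse the limma adjusted p was 0.000283 with the change still under 2-fold on the log2(TPM + 1) scale. That scale understates the change at such low levels. In TPM the group means were 2.33-fold (D/F) and 2.37-fold (T/F) lower with CCS1477. The ratio of *Ccl3* to *Ccl4* within a library was higher with CCS1477 in 6 of 6 mice. In D/F it went from 8.03, 5.19 and 2.99 to 14.8, 123 and 12.1, and in T/F from 6.87, 3.06 and 2.83 to 19.8, 5.16 and 10.5. The ratio of *Ccl9* to *Ccl6* was lower in 4 mice and higher in 2. These ratios and that of *Il1b* to *Il1rn* below were chosen after the values had been seen, so no test is given for them.

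**Figure D2:**
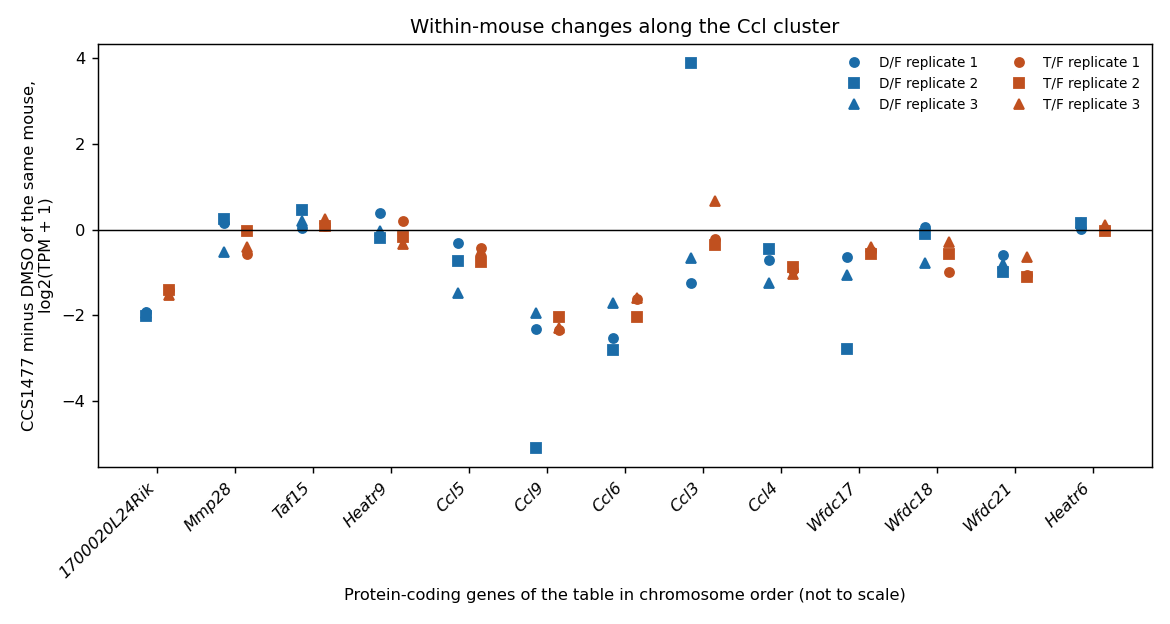
Change in each mouse, CCS1477 minus DMSO on the log2(TPM + 1) scale, for the protein-coding genes of the table around the chromosome 11 chemokine cluster, in chromosome order and not to scale. All 6 points of *Ccl9*, *Ccl6* and *Ccl4* lie below 0, and those of *Ccl3* lie on both sides, up to 3.88 in D/F replicate 2.

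Within the cluster, annotated on GRCm38 by GENCODE vM21, the 5 Ccl genes of the table span *Ccl5* (chr11:83525778-83530518), *Ccl9* (chr11:83572919-83578636), *Ccl6* (chr11:83587882-83593087), *Ccl3* (chr11:83647844-83649355) and *Ccl4* (chr11:83662584-83664683). *Ccl5*, a chemokine of T cells and NK cells, was lower with CCS1477 in all 6 mice, but its level differed widely between mice. Its log2 difference over both genotypes was −0.70 ± 0.67 (SE; limma adjusted p = 0.426). In the fit blocked by mouse the limma adjusted p was 0.00490, with the change under 2-fold. Of the other protein-coding genes around the cluster, *1700020L24Rik* fell (log2 difference −1.71, limma adjusted p = 0.000119). *Wfdc17* (−0.99), *Wfdc21* (−0.86), *Wfdc18* (−0.45), *Mmp28* (−0.19), *Heatr9* (−0.02), *Heatr6* (0.06) and *Taf15* (0.19) were not called.

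*Il1b* (chr2:129364570-129371139) encodes IL-1β. In D/F cells it was 9.01, 45.6 and 24.6 TPM under DMSO and 1.32, 2.31 and 2.56 TPM with CCS1477. The treated libraries were close to each other although the untreated ones were far apart, and the log2 difference was −2.92 ± 0.55 (SE, n = 3; limma adjusted p = 0.0249). In T/F cells *Il1b* was 17.0, 27.0 and 119 TPM under DMSO and 4.33, 6.25 and 38.3 TPM with CCS1477. Replicate 3 was the highest in both T/F groups, so that the ranges overlapped. The T/F log2 difference of −1.77 ± 1.01 (SE, n = 3) had a limma adjusted p of 0.207, and 0.00183 with the mouse as a block. Without T/F replicate 3 it was −1.85 with a limma adjusted p of 0.0207.

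*Il1rn* (chr2:24336853-24351494), whose product opposes IL-1β, fell in both genotypes. It was 10.5, 9.51 and 8.14 TPM under DMSO and 2.26, 3.33 and 1.70 TPM with CCS1477 in D/F, a log2 difference of −1.62 ± 0.22 (SE, n = 3; limma adjusted p = 0.0106). In T/F it was 7.47, 6.78 and 8.64 TPM and then 2.18, 1.99 and 3.01 TPM, a log2 difference of −1.35 ± 0.14 (SE, n = 3; limma adjusted p = 0.00123). The agonist and its antagonist were both lower in every mouse. Their ratio, *Il1b* to *Il1rn*, was also lower with CCS1477 in 6 of 6 mice. In D/F it went from 0.858, 4.8 and 3.02 to 0.585, 0.694 and 1.51, and in T/F from 2.27, 3.98 and 13.8 to 1.99, 3.15 and 12.7.

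**Figure D3:**
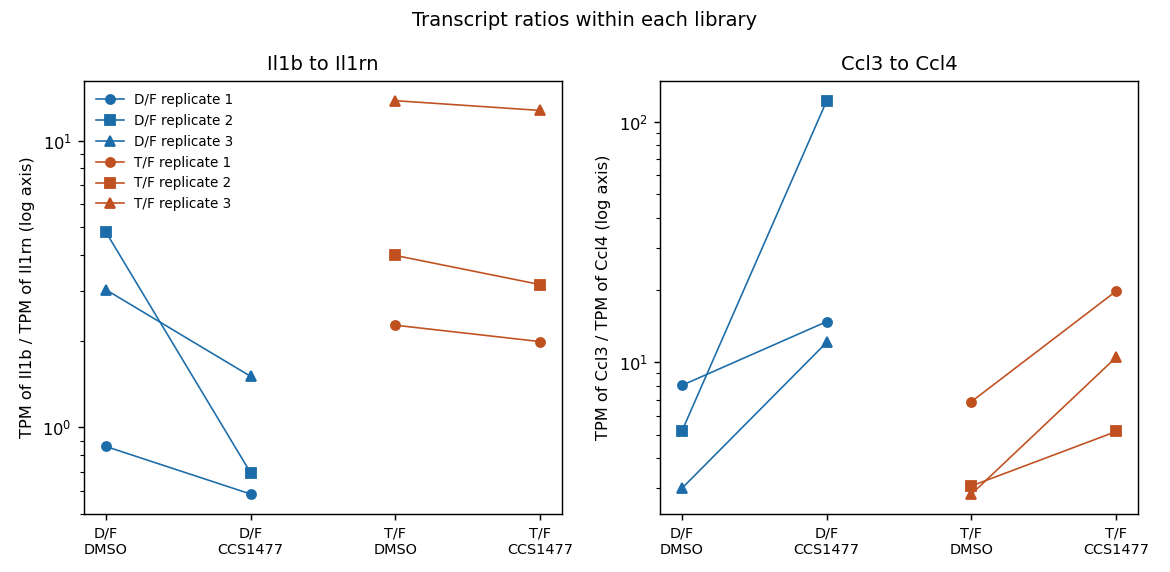
Ratio of 2 transcripts within each library on a log axis, for *Il1b* to *Il1rn* and for *Ccl3* to *Ccl4*, by group, with lines joining the libraries of a mouse. The first ratio is lower and the second higher with CCS1477 in all 6 mice, and *Ccl3* to *Ccl4* reaches 123 in D/F replicate 2.

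*Tnf* (chr17:35199381-35202007) encodes tumour necrosis factor and varied little between the mice of a genotype under DMSO. It was 15.6, 19.6 and 15.1 TPM under DMSO and 8.23, 12.1 and 5.62 TPM with CCS1477 in D/F. These ranges did not overlap, and the log2 difference of −0.93 ± 0.27 (SE, n = 3) had a limma adjusted p of 0.0757, and 0.0159 with the mouse as a block, in both fits under 2-fold. Without D/F replicate 2 it was −1.06, with a limma adjusted p of 0.0315, and was called. In T/F cells *Tnf* fell from 23.7, 20.0 and 24.3 TPM to 7.33, 8.89 and 9.72 TPM, a log2 difference of −1.30 ± 0.12 (SE, n = 3; limma adjusted p = 0.00100). Both neighbours on chromosome 17 are genes of the same cytokine family. *Ltb*, lymphotoxin β, fell with a log2 difference of −1.96 over both genotypes (limma adjusted p = 0.00848), and *Lta*, lymphotoxin α, was near 1 TPM or below in its group means with a log2 difference of −0.55 (limma adjusted p = 0.0302).

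*Il6* (chr5:30013114-30019981) had the lowest mean level of the 9 genes in every group. It was 1.27, 2.87 and 2.29 TPM under DMSO in D/F, and with CCS1477 it was listed at 0 in replicates 1 and 3 and at 0.223 TPM in replicate 2. In T/F it was 0.835, 1.83 and 3.90 TPM under DMSO, and with CCS1477 it was listed at 0 in replicate 1 and was 0.194 and 1.37 TPM in replicates 2 and 3. Every mouse was lower with CCS1477, with overlapping ranges in T/F only. The fitted log2 difference was −1.52 ± 0.23 (SE, n = 3; limma adjusted p = 0.0155) in D/F. In T/F it was −1.06 ± 0.46 (SE, n = 3) with a limma adjusted p of 0.117, and 0.00326 with the mouse as a block. Without T/F replicate 3 the limma adjusted p was 0.0466. At these levels the size of the difference depends on the pseudocount and is no bound: with 0.1 in place of 1 it was −3.85 (D/F) and −2.46 (T/F).

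*Osm* (chr11:4236420-4241026) had small differences. It was 9.72, 7.37 and 8.37 TPM under DMSO and 11.9, 4.66 and 9.60 TPM with CCS1477 in D/F, where 2 mice were higher and replicate 2 was lower. In T/F it was 10.5, 14.0 and 16.3 TPM and then 8.64, 11.5 and 14.1 TPM, lower in each of the 3 mice. The log2 difference was −0.04 (95% confidence interval −0.81 to 0.73) in D/F and −0.24 (−0.77 to 0.29) in T/F, and a 2-fold difference lies outside both intervals. Blocked by mouse, the T/F difference had a limma adjusted p of 0.0208 and stayed under 2-fold. *Lif*, the neighbouring gene of the same family, was 1.67 and 1.35 TPM in the DMSO means and had a log2 difference of −0.57 (limma adjusted p = 0.0233).

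**Figure D4:**
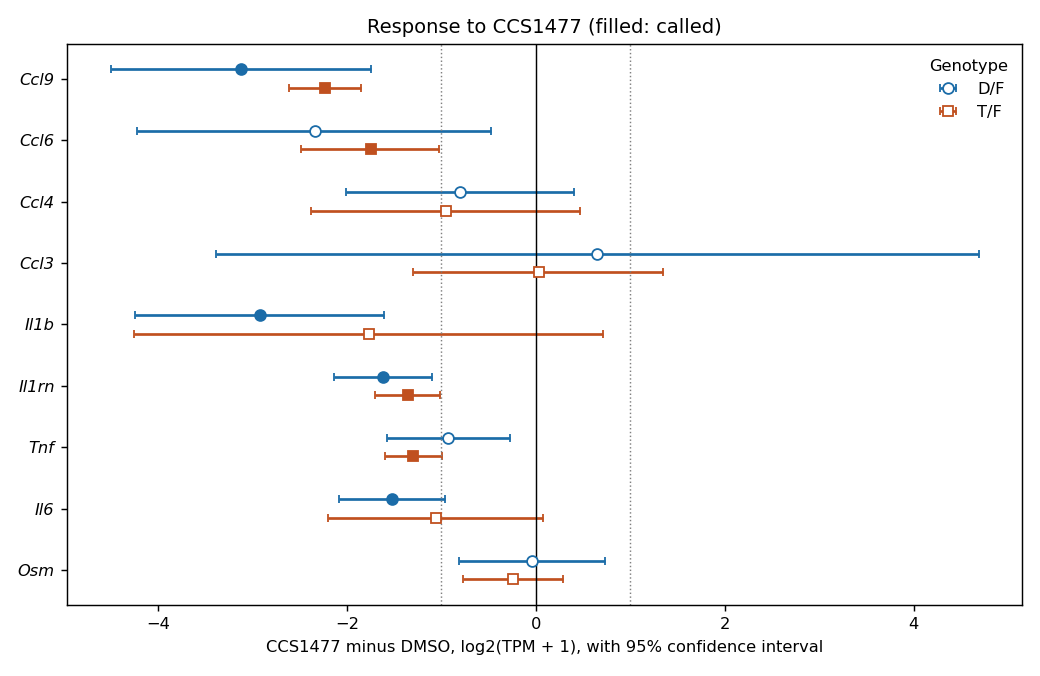
Log2 difference, CCS1477 minus DMSO on the log2(TPM + 1) scale, with its 95% confidence interval from limma, for the 9 genes in D/F (circles, 3 mice) and T/F (squares, 3 mice). Filled symbols were called and dotted lines mark a 2-fold change. The interval of *Ccl3* in D/F runs from −3.38 to 4.69, and those of *Ccl9* and *Il1rn* lie below −1 in both genotypes.

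The order of the mean levels under DMSO was *Ccl9*, *Ccl6*, *Il1b*, *Tnf* and *Ccl3* in both genotypes, with *Il1rn*, *Osm*, *Ccl4* and *Il6* after them in D/F and *Osm*, *Il1rn*, *Ccl4* and *Il6* in T/F. The ranges of neighbours in this order overlapped except for *Osm* above *Ccl4* in D/F and *Osm* above *Il1rn* in T/F. With CCS1477 the means of *Ccl9* and *Ccl6* in T/F, 26.9 and 24.9 TPM, were near that of *Ccl3*, 22.7 TPM.

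The responses of the genotypes were compared by the difference between them, T/F minus D/F. None of the 9 genes and 0.00% of 15583 genes passed an adjusted p under 0.05 in limma. None of the 9 had an unadjusted p under 0.05 without the block. In the fit blocked by mouse, *Il1b* (1.15) and *Il6* (0.46) did, with limma adjusted p of 0.299 and 0.322. The 95% confidence intervals ran from −1.59 to 3.90 for *Il1b* and from −0.56 to 2.35 for *Ccl9*, and were narrower for *Osm* (−1.11 to 0.71), *Tnf* (−1.07 to 0.33) and *Il1rn* (−0.31 to 0.85). Under DMSO no gene of the 9 was called between the genotypes, beside 0.0328% of 15265 genes. *Tnf* and *Osm* were higher in each T/F library than in each D/F library, with T/F minus D/F differences of 0.42 and 0.61, unadjusted p of 0.0310 and 0.0170 and limma adjusted p of 0.727 and 0.654. Such a lack of overlap with T/F above was seen for 5.17% of all genes. With CCS1477, where the doses differ, none of the 8 genes tested was called (0.0329% of 15199 genes), and *Ccl6*, *Ccl9* and *Il1b* were higher in each T/F library than in each D/F library (9.59% of genes), with differences of 1.71, 0.93 and 1.93. The unadjusted p of *Ccl6* and *Il1b* were 0.0325 and 0.0375 in limma, and their adjusted p 0.417 and 0.432. *Il6* did not reach the mean of 1 TPM needed for that test.

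Of 14 receptor genes and subunits listed for these cytokines, 11 have a row, and 3 were called lower over both genotypes and none higher. These were *Ccr1*, a receptor of the CC chemokines above, and both receptors that bind IL-1β. For *Ccr1* the D/F means were 29.5 ± 11.3 TPM (SD, n = 3) under DMSO and 2.15 ± 1.56 TPM under CCS1477, and the T/F means 53.1 ± 16.5 and 9.67 ± 3.80 TPM, a fall with a log2 difference of −2.86 (limma adjusted p = 5.70e-05). *Il1r1*, the signaling receptor of IL-1β, had a log2 difference of −1.52, and *Il1r2*, a decoy that binds IL-1β without signaling, one of −1.42. *Tnfrsf1b* (−0.89), *Il6ra* (−0.56), *Il6st* (−0.53) and *Cxcr2* (−0.34) passed an adjusted p of 0.05 in limma with changes under 2-fold. For *Il6st* the log2 difference was −0.15 in D/F (limma adjusted p = 0.712) and −0.91 in T/F (limma adjusted p = 0.0164). *Tnfrsf1a*, the main TNF receptor of most cells, was 116 and 119 TPM in the DMSO means of D/F and T/F and 99.3 and 122 TPM with CCS1477. *Il1rap* (0.28), *Lifr* (0.41) and *Sigirr* (−0.28) did not pass. *Ccr1*, *Il1r1* and *Il1r2* were lower with CCS1477 in 6 of 6 mice, as were *Ccl6*, *Ccl9* and *Il1b*, and *Il1rap*, the accessory chain of the IL-1 receptor, was lower in 1 of 6.

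**Figure D5:**
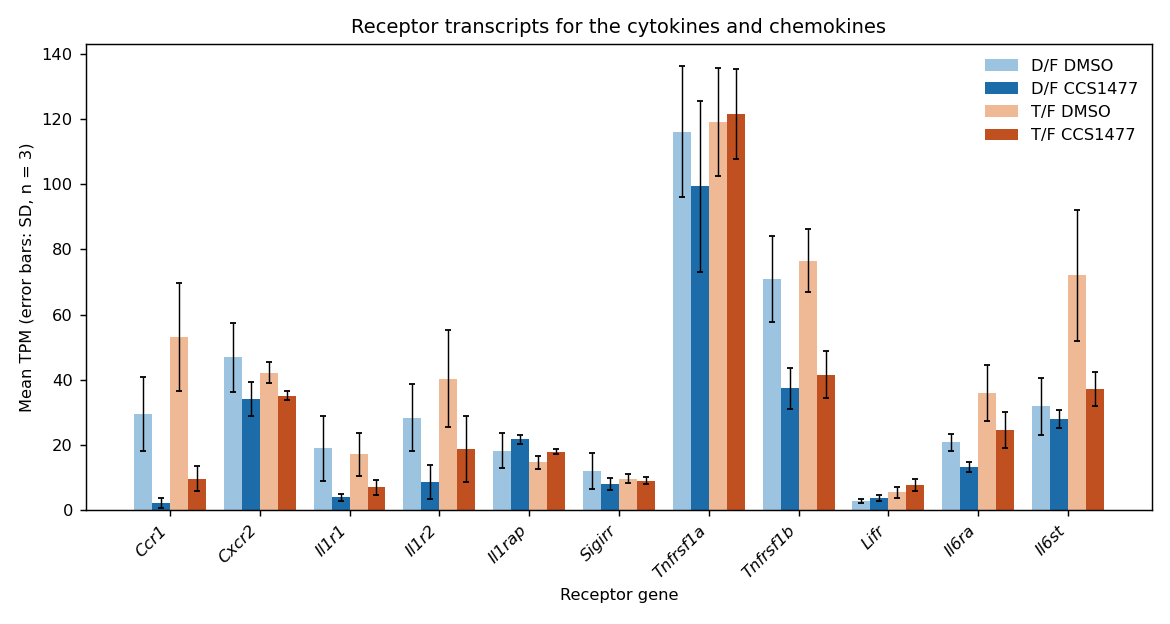
Mean TPM of 11 receptor genes in the 4 groups (bars, from 0) with the SD of 3 libraries. *Ccr1*, *Il1r1* and *Il1r2* were called lower with CCS1477 over both genotypes, and *Tnfrsf1a*, with group means between 99.3 and 122 TPM, was not.

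Of 15 genes that process IL-1β and TNF or set the decay of cytokine mRNA, 1 was called. *Nlrp3*, the sensor of the inflammasome that matures IL-1β, fell from a mean of 11.97 (SD 4.78) to 2.71 (SD 2.05) TPM in D/F. The T/F means went from 23.3 (SD 5.38) to 7.24 (SD 2.64) TPM (n = 3; log2 difference −1.73, limma adjusted p = 0.000404). Counted by an adjusted p under 0.05 alone, whatever the size of the change, 4 were lower, *Nlrp3*, *Gsdmd* (−0.55), *Zfp36l1* (−0.43) and *Pycard* (−0.29), and 1 was higher, *Aim2* (0.52). *Gsdmd* encodes the pore through which IL-1β leaves the cell, *Pycard* the adaptor of the inflammasome and *Aim2* a sensor of DNA in the cytosol.

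Among 20 other chemokines with a row, 4 were called lower and none higher: *Ccl17* (−2.37), *Cxcl16* (−1.73), *Ppbp* (−1.61) and *Ccl2* (−1.08). With the mouse as a block *Ccl22* (−1.48), named after its values were seen, was also called lower, which made 5 of 20. Among 26 other cytokines with a row, 6 were called lower, led by *Il12a* (−2.49), *Ltb* (−1.96), *Tnfsf14* (−1.38) and *Ebi3* (−1.29), and 2 were called higher, *Il4* and *Il18* (each 1.01), both at low levels. Of 25 genes that answer or restrain NF-κB, none was called lower and 2 were called higher. *Nfkbiz*, which encodes the nuclear regulator IκBζ, rose by 1.17 (limma adjusted p = 0.00474), and *Ier3*, an immediate early gene, by 1.04 (limma adjusted p = 0.00372). Counted by the adjusted p alone, 3 of the 25 were higher and 4 lower, among the latter *Plaur* (−0.91) and *Nfkbid* (−0.78). Blocked by mouse, *Tnip3* (−1.23), an inhibitor of NF-κB signaling, was also called lower. The median log2 difference of these 25 genes was 0.01, beside 0.07 over all genes. Their summed level, looked at after the values were seen, differed between mice. In D/F replicates 1 to 3 it went from 785, 1390 and 1009 TPM to 923, 2166 and 1090 TPM. In T/F it went from 968, 1198 and 1462.5 TPM to 951, 1139 and 1439 TPM. In the list of processing and decay genes and in that of NF-κB the genes changed by less than 2-fold and *Tnip3*, and around the chemokine cluster the genes other than *Ccl5*, were named after their values were seen.

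Markers of some cell types, but not of all, were also lower with CCS1477. Of 11 monocyte and macrophage markers with a row, 7 were called lower over both genotypes and none higher, led by *Ccr2* (−3.41), *Csf1r* (−2.31), *F13a1* (−2.29) and *Mrc1* (−1.65). Their summed level went from 562 to 1457 TPM under DMSO to 176 to 605 TPM with CCS1477 in D/F, and from 648 to 867 TPM to 235 to 336 TPM in T/F. Of 12 progenitor and blast markers 6 were called lower and none higher, led by *Myb* (−1.97), *Cd33* (−1.60), *Flt3* (−1.40) and *Mpo* (−1.36). *Kit*, used for the enrichment, was also called lower (−1.10) and was at 22.8 TPM or more in every library. The fitted difference over both genotypes was below 0 for 10 of these 12 markers and above 0 for 2. *Meis1* and *Hoxa9*, named after their values were seen, were each lower with CCS1477 in only 1 of 6 mice. Of 12 neutrophil markers 2 were called lower, *Retnlg* (−1.89) and *Ly6g* (−1.5), and the fitted difference was below 0 for 11. With the mouse as a block, 4 of the 12 were called lower. The summed level of the list overlapped between treatments in both genotypes, as that of the monocyte and macrophage list did in D/F. In the other lists, 4 of 8 mast cell and basophil markers (with *Il4*, also listed there, called higher), 2 of 7 T and NK cell markers, 2 of 7 dendritic cell markers, 1 of 6 megakaryocyte and platelet markers and 1 of 2 stromal and endothelial markers were called lower, with none of the 5 B cell or 7 erythroid markers. The defining lymphocyte genes *Cd3e*, *Cd3g*, *Cd79a* and *Ms4a1* have no row, while *Cd3d*, *Cd4*, *Cd8a* and *Cd79b* of these lists do. Among T and NK cell markers picked after their values were seen, *Nkg7* was 65.5 to 159 TPM under DMSO and 5.49 to 26.9 TPM with CCS1477. *Cd3d* overlapped between treatments, at 7.96 to 14.9 TPM and 7.24 to 11.8 TPM. The stromal and endothelial gene called was *Pecam1*, and *Col1a1*, *Col1a2*, *Col3a1*, *Cxcl12*, *Cdh5* and *Kdr* of that list have no row either. The part of these cell types in the fall of the cytokines was not tested.

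The genes whose pattern over the 12 libraries was most like that of each cytokine were ranked by Pearson's r of log2(TPM + 1), as a description over libraries that share 6 mice and 2 treatments. For *Il1b* they were *B3gnt5* (r = 0.977), *Jaml* and *Apol7c*, for *Il6* *H2-DMb1* (0.973), *P2ry14* and *Pdcd1lg2*, and for *Tnf* *Cd69* (0.969), *Apoe* and *2010111I01Rik*. For *Ccl9* they included *Cd44* (0.981) and *Btk*, for *Ccl6* *Txndc5* (0.980), *Adora2b* and *Cybb*, and for *Il1rn* *Slc17a9* (0.984), *Myb* and *Slc25a37*. For *Ccl4* they were *Mvp* (0.959), the chemokine *Ccl22* and *Sema6d*. *Ccl3* and *Osm* had lower highest values, 0.916 with *Furin*, followed by *Zfp979* and *Icam1*, and 0.912 with *Lgals3*, followed by *Socs3* and *Gm6341*. Between the cytokines themselves *Il1b* and *Il6* were the most alike (r = 0.938), and *Ccl3* and *Ccl6* the least (r = −0.412).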

How the data were processed

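RNA of 12 libraries, 3 mice by 2 genotypes by 2 treatments, was analysed. The authors deposited 1 table of linear TPM per gene, estimated with kallisto on mm10 per the labels, and the study's methods name AltAnalyze for the processing. The annotation is not given in the sources used here, nor are the kallisto settings. The labels name both ribosomal depletion and an mRNA kit. Libraries sum to 914204 to 931697 TPM, and each gene reaches at least 2.00 TPM in 1 library, so genes below that level had been removed before deposit. No spike-in is named. TPM keep no counts, so no count model, interval or floor from depth was used.

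Linear models were fitted in R 4.3.3 with limma 3.58.1 to log2(TPM + 1). Variances were moderated by eBayes (no trend), p are two-sided, and the Benjamini-Hochberg adjustment ran over every gene whose mean reached 1 TPM in a group of the fit. The response was fitted in each genotype and, with a genotype term, over both, and responses were set against each other in 1 fit of 4 groups. The 9 genes with a row passed this filter in each response. The methods name no mouse term, so the main fit has none. The labels give the DMSO and CCS1477 libraries of a replicate number the same mouse, and after removing group means they correlated at 0.523, 0.650 and 0.528 (D/F replicates) and at 0.366, 0.337 and 0.473 (T/F replicates), against at most 0.130 between mice. The scripts were tested on simulated data.

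The genes, gene lists and markers were chosen with earlier results of these data known. Named were all 10 genes, every receptor with a row, up to 4 called genes with the largest change from each other list, the 3 most alike genes of each cytokine among genes averaging 5 TPM or more, and the nearest genes on either side, and others are named as chosen later. Some genes that this rule names are not reported here. Alternatives were a pseudocount of 0.1, a filter of 5 TPM, no filter, eBayes with a trend, rescaling to the median gene, quantile normalization, other limits of a call, a shared fit of 4 groups, leaving out each mouse, and the mouse as a block. For the comparisons between genotypes that block was the replicate number, which links unrelated mice. Positions are from GENCODE vM21 on GRCm38, and promoters from RefSeq on GRCm38.p6.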

Additional observations from a re-analysis of the deposited data

How the results depend on the processing

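Of 662 values of the 9 genes under an alternative, 616 kept their direction and their side of the threshold, 8 gained a call, 10 lost one and 28 changed sign. With the mouse as a block 5 of 9 genes were called in D/F, 6 in T/F, 6 over both genotypes and 0 for the difference between responses. Between genotypes no mouse is shared, so the block there was the replicate number, which links unrelated mice. Its count of 0 is therefore not that of a paired test. The D/F count ran from 0 to 6 when 1 mouse was left out, with fewer samples in the fit, the T/F count from 3 to 6, and the count over both genotypes was 6 in each such fit. No other alternative moved a count by more than 1.5 times. Changes of sign, none of them in a called value, were as follows, and the cause was not tested. When 1 mouse was left out, *Ccl3* ran from −0.96 to 1.6 in D/F, −0.29 to 0.22 in T/F, −0.37 to 0.66 over both genotypes and −1.57 to 0.98 for the difference between responses, and *Osm* from −0.19 to 0.22 in D/F. The difference between responses ran from −0.37 to 0.02 for *Ccl4* and from −0.09 to 1.48 for *Ccl9*. Between genotypes under DMSO the ranges were −0.29 to 0.49 for *Ccl9*, −0.03 to 1.34 for *Il1b* and −0.43 to 0.28 for *Il6*. Under CCS1477 they were −0.87 to 2.33 for *Ccl3*, −0.20 to 0.30 for *Tnf* and −0.16 to 0.18 for *Il1rn*. *Ccl3* in T/F was −0.05 after rescaling to the median gene and −0.02 after quantile normalization. With a pseudocount of 0.1 the difference between responses of *Ccl4* was 0.35 and the genotype difference of *Il1rn* under CCS1477 0.01, which was 0.01 after rescaling and 0.08 after quantile normalization. *Il6* under DMSO was 0.02 after quantile normalization. TPM keep no read numbers, so the depth behind low values is unknown.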
